A study of Mus musculus with 30 samples.

Results

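The difference between lard-fed and soybean-oil-fed mice in the ventral prostate (VP) was compared between 12 and 32 weeks of feeding. The measure was a time-by-diet term, calculated for every gene as PF minus SO at 32 weeks minus PF minus SO at 12 weeks, on the log2 scale. A term below 0 means that PF stood higher relative to SO at 12 weeks than at 32 weeks, and a term above 0 means the opposite. The term was fitted over 20 of the 30 mice of the series, and 16274 of 39179 genes in the deposited tables passed the filter on low counts. All 20 were C57BL/6 mice on normolipidic diets given from weaning, and the groups were PF (labelled Por Fat, prepared with lard) and SO (soybean oil), each at 12 and at 32 weeks, with 5 separate mice in each of the 4 groups. Mice of 12 and 32 weeks were different animals, so time and any difference in handling between the collections cannot be told apart, and diets were compared within a collection. The remaining 10 mice received linseed oil and entered only an alternative fit. Pathways and cell types are ordered below by how their diet difference appeared, faded or reversed.

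The VP is a secretory gland whose luminal epithelium releases large amounts of a few proteins, which load the endoplasmic reticulum (ER) and Golgi. Resident macrophages, dendritic cells and lymphocytes lie in and around its ducts. Interferons, released by infected or activated cells, switch on antiviral genes and antigen presentation, while the unfolded protein response raises ER chaperones and degradation factors when proteins fold poorly. In whole tissue, a lower level of a cell-type gene can mean fewer such cells or less RNA in each, and these cannot be told apart here.

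Read pairs on genes numbered 27836359 to 41301707 per mouse, so the more abundant genes were deeply covered while many lymphocyte genes were below 1 CPM (counts scaled to a common library size). The tissue label held, since Sbp, the spermine-binding protein of the VP, took 8.31% to 26.8% of scaled counts in the 20 mice, and none of the 10 seminal vesicle markers passed the filter. Mouse 5 of PF at 12 weeks had the lowest interferon, MHC class II and T-cell levels of its group, mouse 4 of SO at 32 weeks had the highest of the 20 mice, and mouse 1 of PF at 32 weeks stood apart in ribosomal protein genes. List counts that turn on these mice are given with and without them, and genes named as called by DESeq2 that did not pass without mouse 4 of SO at 32 weeks or without mouse 5 of PF at 12 weeks are named below.

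With edgeR, no gene passed an adjusted p of 0.05 for the time-by-diet term (0% of 16274), and the smallest adjusted p was 0.14. At an unadjusted p under 0.05 the term was below 0 in 1099 genes (6.75% of those tested) and above 0 in 459 (2.82%). These shares are the background for the list counts below. Limma voom also called 0 genes, with 1752 at an unadjusted p under 0.05. The Wald test of DESeq2 on the same counts called 206 genes, 188 with a term below 0 (1.01% of 18648) and 18 with a term above 0 (0.0965%). Of the 205 of these genes that were also in the edgeR table, all 205 had the same sign and an unadjusted p under 0.05 there. Both tests used the same counts and contrast, so this overlap is not separate evidence for the calls. Without mouse 5 of PF at 12 weeks edgeR called 132 genes, 131 of them with a term below 0. DESeq2 called 382 genes without that mouse and 54 without mouse 4 of SO at 32 weeks, and 201 and 54 of the 206 were still called. Of the genes described below as called by DESeq2, those that did not pass without mouse 4 of SO at 32 weeks were Ciita, Ccl8, Cxcl16, Xcr1, Cxcr6, Ccr7, Osm, Il1rn, Il18bp, Cd3g, Fcgr1, Apof, Mmp3, Ostc, Mcfd2, Selenos, Acot1, Slc33a1, Fbxo9, Rab39b, Tsc22d3, Vmac, Hbb-bs and Hbb-bt, with adjusted p from 0.0526 (Slc33a1) to 0.162 (Ccr7). Without mouse 5 of PF at 12 weeks Ostc (0.0583) and Mcfd2 (0.0693) did not pass.

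The genes with a term below 0 were mostly higher in PF at 12 weeks. Among the 1099, PF exceeded SO in 1072 at 12 weeks and in 34 at 32 weeks, and the median difference went from 0.79 to -0.37. A difference was classed as fading when its size at 32 weeks was under 0.5 of that at 12 weeks, as appearing in the opposite case, and as reversing when the signs differed and the smaller was at least 0.5 of the larger. By these classes 507 differences faded, 425 reversed and 167 appeared. Over all 16274 genes, 3783 differences faded, 2906 reversed and 6476 appeared. The term was below 0 in 8155 of all genes and above 0 in 8119. These counts are the background for the classes and signs given for lists below. Over the same 1099 genes the median change from 12 to 32 weeks was 1.11 within SO and -0.09 within PF. Among the 459 genes with a term above 0, 272 differences appeared, 157 reversed and 30 faded, and the median change with time was -0.23 within SO and 0.11 within PF. These medians describe genes chosen on the same contrast and carry no test. The 5.03% given next is the background for list counts of genes that rose with time in SO. Read within a diet, edgeR called 818 genes higher (5.03%) and 211 lower (1.3%) at 32 than at 12 weeks in SO. It called 0 genes in PF, where 1633 had an unadjusted p under 0.05 and the smallest adjusted p was 0.193.

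**Figure D1:**
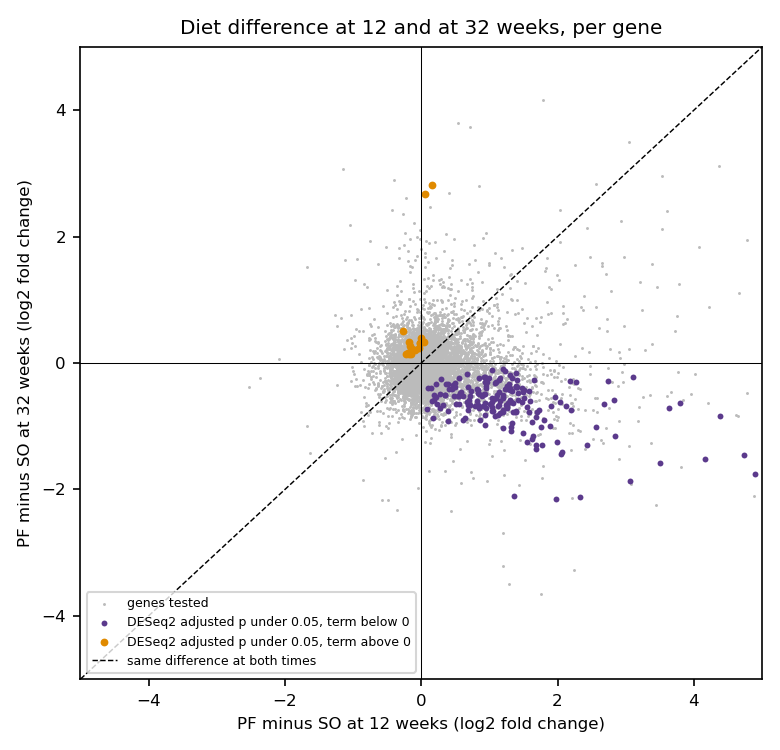
Each point is a gene, with the PF minus SO log2 fold change at 12 weeks on the x axis and at 32 weeks on the y axis, and the dashed line marks an equal difference at both times. Grey points are 16262 genes within the axes (12 lie beyond them), and the coloured points were chosen by the DESeq2 test of the same contrast: 186 genes with a term below 0 lie at the lower right and 18 with a term above 0 lie near or above the horizontal zero line.

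Promoters of listed genes and of genes called by DESeq2 were inspected first for sequence elements of the interferon and unfolded protein responses. The interferon-stimulated response element was searched as TTTCNNTTTC and the ER stress response element as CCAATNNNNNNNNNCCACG, on both strands, in windows of 250 bases before to 50 bases after each RefSeq start, from RefSeq on GRCm38.p6. The first was found in 20 of the 32 interferon-stimulated genes with a window (62.5%) and in 29 of 131 genes with a term below 0 in DESeq2 (22.1%). It was present in 3.9% of the 11818 tested genes with a window, and in 0 of 16 genes with a term above 0 in DESeq2. The second was found in 7 of 30 ER chaperone genes (23.3%) and in 0.152% of tested genes with a window. Dnajc10, Selenos, Agr2 and Dnajb9, described below with a term above 0, have windows without it. Its share among genes that DESeq2 called above 0 was not counted. Stretches of 100 bases upstream of the start are shown for 3 genes with a match whose term DESeq2 called below 0. Hspa5 is shown as an ER chaperone with the second element, although its diet difference kept its direction. Each is given 5′ to 3′ on the gene's strand with the match in capitals. A match is a description of letters and not a shown binding site.
Oas3, chr5:120777680-120777779, minus strand: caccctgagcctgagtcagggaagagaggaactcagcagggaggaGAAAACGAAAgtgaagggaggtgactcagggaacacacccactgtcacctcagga
Ctss, chr3:95526686-95526785, plus strand: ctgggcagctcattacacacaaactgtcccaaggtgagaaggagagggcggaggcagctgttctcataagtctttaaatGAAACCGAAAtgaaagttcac
Aif1, chr17:35176155-35176254, minus strand: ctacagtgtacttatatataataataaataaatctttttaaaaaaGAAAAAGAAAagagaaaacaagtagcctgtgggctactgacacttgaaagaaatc
Hspa5, chr2:34771984-34772083, plus strand: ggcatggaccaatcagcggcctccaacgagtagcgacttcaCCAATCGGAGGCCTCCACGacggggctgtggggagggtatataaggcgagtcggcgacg
In the 3 genes with the interferon element the match is on the opposite strand, and it ends 66 bases before the start in Oas3, 12 in Ctss and 148 in Aif1. In Aif1 it falls in a run of A and G bases. Ddx58, described below, also has a match in its window. Irf9, Uba7, Dtx3l, Phf11d, H2-Q6 and H2-Q7, also called below 0 by DESeq2 and described below, have windows without a match.

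Interferon-stimulated genes mostly reversed (23 of 43) or faded (18), against 2906 and 3783 of all 16274 genes. Of 45 genes listed, 43 were in the tables and all passed the filter. The term was below 0 in 41 and had an unadjusted p under 0.05 in 37, all below 0, against 6.75% of all genes. DESeq2 called 19 of them, all below 0, against 1.01% below 0 over the 18648 genes it tested. Over all genes, 54 of its 206 calls remained without mouse 4 of SO at 32 weeks. The median PF minus SO difference was 1.16 at 12 weeks and -0.52 at 32 weeks, and the median change with time was 1.29 within SO and -0.43 within PF, against medians of about 0 over all genes (-0.01, -0.01, -0.02 and -0.01 in the same order). In SO, 24 of the 43 rose with time by edgeR, against 5.03% of all genes. The count of 37 lay between 33 and 38 as each mouse was left out in turn.

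Nlrc5, the transactivator of MHC class I genes (chromosome 8, 94434356 to 94527272), was among the genes with the smallest p. Its levels at 12 weeks were 10.6, 6.49, 5.85, 5.08 and 5.81 CPM in SO and 14.1, 20.3, 14.7, 28.4 and 6.94 CPM in PF. At 32 weeks they were 19.6, 23.4, 17.55, 44.1 and 15.8 CPM in SO and 11.0, 14.4, 10.4, 9.88 and 11.7 CPM in PF. At 12 weeks 4 of 5 PF mice were above every SO mouse, and at 32 weeks every PF mouse was below every SO mouse. The term was -2.39 ± 0.45 (SE), with an adjusted p of 0.14 in edgeR and 3.99e-04 in DESeq2.

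Oas3 encodes an enzyme that makes 2-5A, the messenger that activates RNase L against viral RNA (chromosome 5, 120753098 to 120777661). It was at 0.983, 0.7545, 0.447, 0.395 and 0.232 CPM in SO and 6.43, 4.75, 0.861, 1.76 and 0.340 CPM in PF at 12 weeks. At 32 weeks it was at 8.82, 7.95, 3.003, 15.5 and 2.60 CPM in SO and 3.86, 1.37, 1.17, 0.842 and 1.41 CPM in PF. The groups overlapped at both times, through mice 3 and 5 of PF at 12 weeks and mouse 1 of PF at 32 weeks. Its term was -4.46 ± 0.96, with an adjusted p of 0.143 in edgeR and 0.0045 in DESeq2. Its paralog Oas2 had a term of -4.12 ± 0.82.

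Ddx58, the cytosolic sensor of viral RNA also called RIG-I (chromosome 4, 40203773 to 40239828), ranged from 16.1 to 27.9 CPM in SO and from 20.9 to 53.4 CPM in PF at 12 weeks. At 32 weeks it ranged from 33.3 to 70.7 CPM in SO and from 26.7 to 37.6 CPM in PF, so the groups overlapped at both times. Its term was -1.59 ± 0.32. Irf9, a subunit of the factor that binds the interferon element, had a term of -1.34 ± 0.29, with differences of 0.85 at 12 weeks and -0.49 at 32 weeks.

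Uba7, the enzyme that activates ISG15 for attachment to proteins (chromosome 9, 107975505 to 107984060), did not overlap between the diets at 32 weeks. It was at 38.9, 37.1, 32.35, 32.2 and 34.3 CPM in SO and 55.1, 59.5, 46.4, 61.8 and 30.3 CPM in PF at 12 weeks. The levels at 32 weeks were 57.4, 58.3, 51.1, 63.2 and 43.5 CPM in SO and 40.45, 39.7, 39.6, 33.9 and 36.3 CPM in PF. At 12 weeks 4 of 5 PF mice were above every SO mouse and mouse 5 of PF was below them all, and at 32 weeks all SO mice were above all PF mice. Its term was -1.06 ± 0.20, with an adjusted p of 0.14 in edgeR and 0.00186 in DESeq2. Dtx3l, a ubiquitin ligase partner of PARP9, had a term of -1.16 ± 0.24, and Phf11d, an interferon-inducible PHD-finger gene, of -1.80 ± 0.37. Both differences changed sign between 12 and 32 weeks.

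MHC class I genes had a median difference that changed sign, and that of class II genes ended near 0. Of 23 class I and peptide loading genes counted, 22 passed the filter, 15 were below 0 at an unadjusted p under 0.05 and none was above 0. The median difference was 0.55 at 12 weeks and -0.33 at 32 weeks. H2-Q7, a non-classical class I gene, was at 7.42 to 15.4 CPM in SO and 12.4 to 53.9 CPM in PF at 12 weeks, and at 31.2 to 136 CPM in SO and 14.8 to 31.6 CPM in PF at 32 weeks. Its term was -2.99 ± 0.55, the smallest p of all genes, with an adjusted p of 2.53e-04 in DESeq2. H2-Q6 (-2.83 ± 0.53) and H2-Q5 (-2.80 ± 0.61) are near-identical copies, so their reads cannot be separated with certainty and these values are not independent.

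All 14 class II genes passed the filter and had a term below 0, of which 11 had an unadjusted p under 0.05. All 14 differences were classed as fading, against 3783 of 16274 over all genes. The median difference was 1.23 at 12 weeks and -0.12 at 32 weeks, and 10 of the 14 rose with time in SO by edgeR. H2-Aa, a class II alpha chain, was at 55.6, 58.4, 52.8, 54.4 and 65.4 CPM in SO and 111.6, 144.7, 169.1, 142.3 and 67.5 CPM in PF at 12 weeks. After 32 weeks it was at 86.4, 131.3, 151.5, 254.2 and 87.7 CPM in SO and 143.3, 152.5, 122.8, 84.2 and 151.2 CPM in PF. The SO mice of 12 weeks were below the mice of all other groups, which overlapped each other. Its term was -1.27 ± 0.37, with an adjusted p of 0.197 in edgeR and 0.0602 in DESeq2. H2-Ab1 (-1.17 ± 0.39), H2-Eb1 (-1.24 ± 0.38) and the invariant chain Cd74 (-1.26 ± 0.38) had similar terms. Ciita, the class II transactivator (-2.02 ± 0.54), and Ctss, the protease that trims the invariant chain (-1.67 ± 0.40), passed with DESeq2 (adjusted p of 0.0251 and 0.012). The class II count of 11 became 7 without mouse 4 of SO at 32 weeks.

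**Figure D2:**
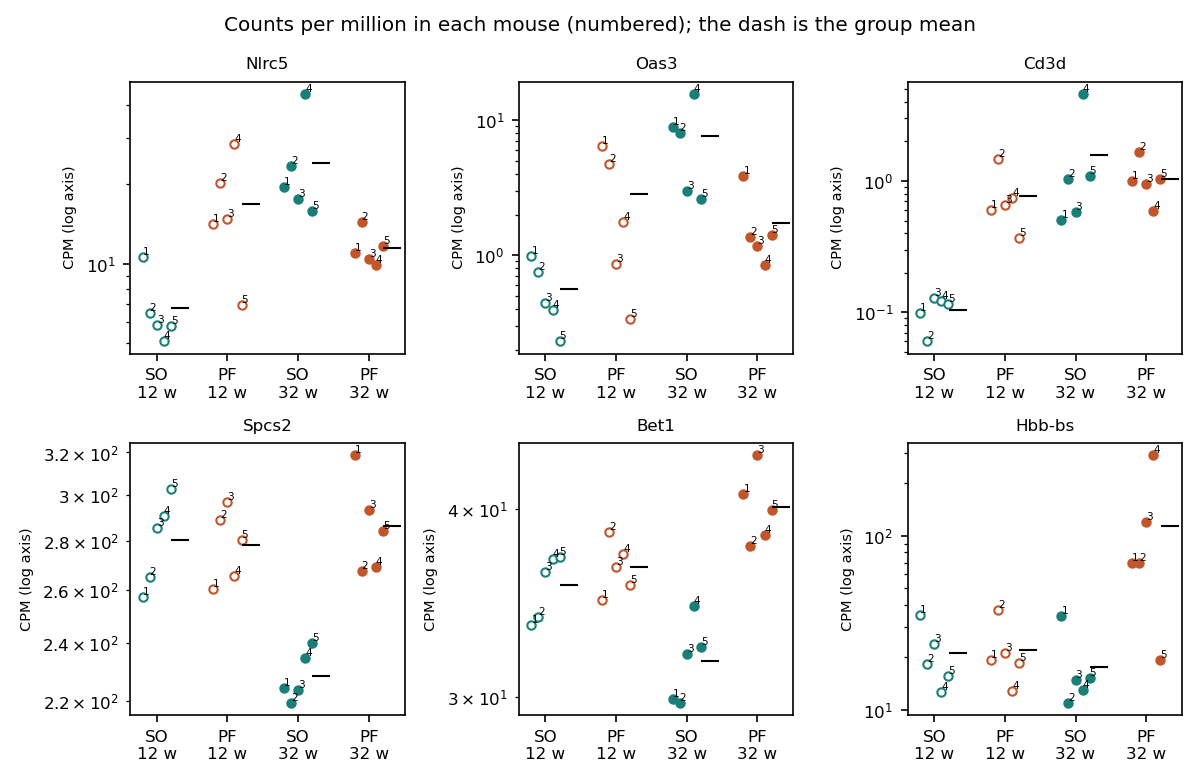
CPM of 6 genes on log axes, with a point for each numbered mouse and a dash at the group mean; open points are 12 weeks and filled points 32 weeks. Nlrc5, Oas3 and Cd3d were lowest on average in SO at 12 weeks, Spcs2 and Bet1 were lowest on average in SO at 32 weeks, and Hbb-bs was high in mice 1 to 4 of PF at 32 weeks.

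Chemokine receptors mostly faded (7 of 14) or reversed (4), against 3783 and 2906 of all 16274 genes. Of 19 receptor genes counted, 14 passed the filter, all 14 had a term below 0 and 10 had an unadjusted p under 0.05. The median difference was 1.20 at 12 weeks and -0.37 at 32 weeks. Cx3cr1, the fractalkine receptor of monocytes and macrophages (chromosome 9, 119901616 to 120069879), was at 4.46, 4.38, 3.897, 4.99 and 3.46 CPM in SO and 9.22, 9.165, 9.95, 5.11 and 3.99 CPM in PF at 12 weeks. After 32 weeks it was at 7.395, 11.2, 8.48, 14.2 and 8.61 CPM in SO and 7.14, 7.20, 6.196, 5.70 and 6.775 CPM in PF. At 12 weeks 4 of 5 PF mice were above every SO mouse, and at 32 weeks every PF mouse was below every SO mouse. The term was -1.42 ± 0.31, with an adjusted p of 0.143 in edgeR and 0.00837 in DESeq2. Xcr1, found on cross-presenting dendritic cells (-2.02 ± 0.46), Cxcr6 (-1.75 ± 0.45) and Ccr7, which guides cells to lymph nodes (-3.03 ± 0.82), also passed with DESeq2. Cxcr4 did not, with a term of -1.20 ± 0.43.

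Chemokine ligands were less uniform. Of 35 counted, 31 passed the filter, 27 had a term below 0 and 9 had an unadjusted p under 0.05, which became 14 without mouse 2 of PF at 32 weeks and 6 without mouse 4 of SO at 32 weeks. Ccl22, a ligand of dendritic cells that attracts regulatory T cells, was at 0.128 to 0.393 CPM in SO and 0.340 to 2.41 CPM in PF at 12 weeks. The levels at 32 weeks were 0.762 to 3.48 CPM in SO and 0.590 to 1.70 CPM in PF. Its term was -3.32 ± 0.71, and DESeq2 called it (adjusted p of 0.00329, and 0.0163 without mouse 4 of SO at 32 weeks) with Ccl8 (-3.33 ± 0.96) and Cxcl16 (-0.70 ± 0.16). Ccl2, a monocyte attractant, kept its direction, with differences of 1.13 at 12 weeks and 0.83 at 32 weeks and a term of -0.29 ± 0.67.

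The sensors and cytokines followed. All 12 Toll-like receptor genes had a term below 0 and 7 had an unadjusted p under 0.05, which became 11 without mouse 2 of PF at 32 weeks. Tlr13, a sensor of bacterial ribosomal RNA, had a term of -1.92 ± 0.44 and an adjusted p of 0.0112 in DESeq2, and Tlr1, Tlr8, Tlr9 and Tlr12 had terms from -1.78 to -1.10 that did not pass. Of 30 cytokine and inflammasome genes counted, 22 passed the filter, all with a term below 0, and 12 had an unadjusted p under 0.05. DESeq2 called the cytokine Osm (-2.58 ± 0.68), the IL-1 receptor antagonist Il1rn (-3.48 ± 1.03) and the IL-18 binding protein Il18bp (-0.83 ± 0.22). The DNA sensor Aim2 (-1.51 ± 0.42) and Il1b (-2.08 ± 0.77) did not pass. Among 21 complement genes 7 were below 0 and 1 (Cfd, described with the adipocyte markers) was above 0 at an unadjusted p under 0.05. The 7 became 4 without mouse 2 or mouse 3 of PF at 12 weeks or without mouse 3 of SO at 32 weeks. DESeq2 called Itgax, which is also a dendritic cell marker, while C5ar2 (-1.07 ± 0.33), C1qb (-1.05 ± 0.39) and C3ar1 (-1.33 ± 0.50) did not pass.

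Markers of macrophages, dendritic cells and lymphocytes had terms mostly below 0, as these genes did. Those of mast cells and granulocytes had terms on both sides of 0, with a median term of -0.09. Of 27 T and NK cell markers that passed the filter (28 counted), 26 had a term below 0 and 24 had an unadjusted p under 0.05, and 23 rose with time in SO by edgeR. Their mean log2 CPM ranged from -1.24 to -0.78 in SO and from -0.74 to 0.76 in PF at 12 weeks, and from 0.07 to 2.05 in SO and from -0.19 to 0.95 in PF at 32 weeks. Cd3d, a chain of the T-cell receptor complex, was at 0.0983, 0.0604, 0.128, 0.122 and 0.116 CPM in SO and 0.599, 1.48, 0.654, 0.741 and 0.368 CPM in PF at 12 weeks. After 32 weeks it was at 0.508, 1.03, 0.584, 4.61 and 1.09 CPM in SO and 0.995, 1.65, 0.948, 0.590 and 1.04 CPM in PF. Every SO mouse of 12 weeks was below the mice of all other groups, and the diets overlapped at 32 weeks, with mouse 4 of SO far above the rest. The term was -3.41 ± 0.79, with an adjusted p of 0.143 in edgeR and 0.0112 in DESeq2 (0.0405 without mouse 4 of SO at 32 weeks). Cd3g (-1.98 ± 0.51) also passed with DESeq2. So did 3 immune genes outside the list, whose cell of origin was not tested. They were Il2rb, a chain of the IL-2 and IL-15 receptors (-1.77 ± 0.35), Runx3, a factor of cytotoxic T cells (-2.23 ± 0.42), and Havcr2, which encodes TIM-3 (-1.64 ± 0.32). The count of 24 became 18 without mouse 4 of SO at 32 weeks.

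Of 23 macrophage and dendritic cell markers, all passed the filter and 15 were below 0 at an unadjusted p under 0.05. Their median difference was 0.93 at 12 weeks and -0.10 at 32 weeks, and 15 rose with time in SO by edgeR. Itgax, which encodes CD11c (-1.76 ± 0.36), Aif1, which encodes IBA1 (-1.70 ± 0.36), and the Fc receptor Fcgr1 (-1.57 ± 0.41) passed with DESeq2. Aif1 was at 1.34 to 1.92 CPM in SO and 2.29 to 5.61 CPM in PF at 12 weeks, without overlap, and at 3.36 to 9.36 CPM in SO and 2.92 to 5.10 CPM in PF at 32 weeks, with overlap.

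B and plasma cell markers varied widely between mice. All 22 passed the filter, 13 were below 0 at an unadjusted p under 0.05, and DESeq2 called 0 of them. Ms4a1, which encodes CD20, was at 0.393, 0.181, 0.543, 0.0304 and 0.552 CPM in SO and 0.937, 6.37, 7.37, 0.275 and 0.651 CPM in PF at 12 weeks. At 32 weeks it was at 0.857, 3.30, 4.17, 14.65 and 0.515 CPM in SO and 1.09, 4.34, 2.95, 1.80 and 2.31 CPM in PF. High values thus came from mice 2 and 3 of PF at 12 weeks and from mouse 4 of SO at 32 weeks. The count of 13 became 4 without the latter mouse and 7 without mouse 2 of PF at 12 weeks.

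Mast cell and granulocyte markers had a median difference of 0.45 at 12 weeks and 1.14 at 32 weeks. Their median term was nevertheless -0.09, and the term of their mean log2 CPM was 0.01, so the list as a whole showed no change with time. Of 20 listed, 9 passed the filter, 5 with a term below 0 and 4 above 0. An unadjusted p under 0.05 was found in 2, both above 0 (22.2%, beside 2.82% of all genes). These were the mast cell proteases Cpa3 (1.08 ± 0.50) and Cma1 (1.10 ± 0.51), whose differences went from 0.12 to 1.20 and from 0.45 to 1.55, and neither passed in DESeq2.

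**Figure D3:**
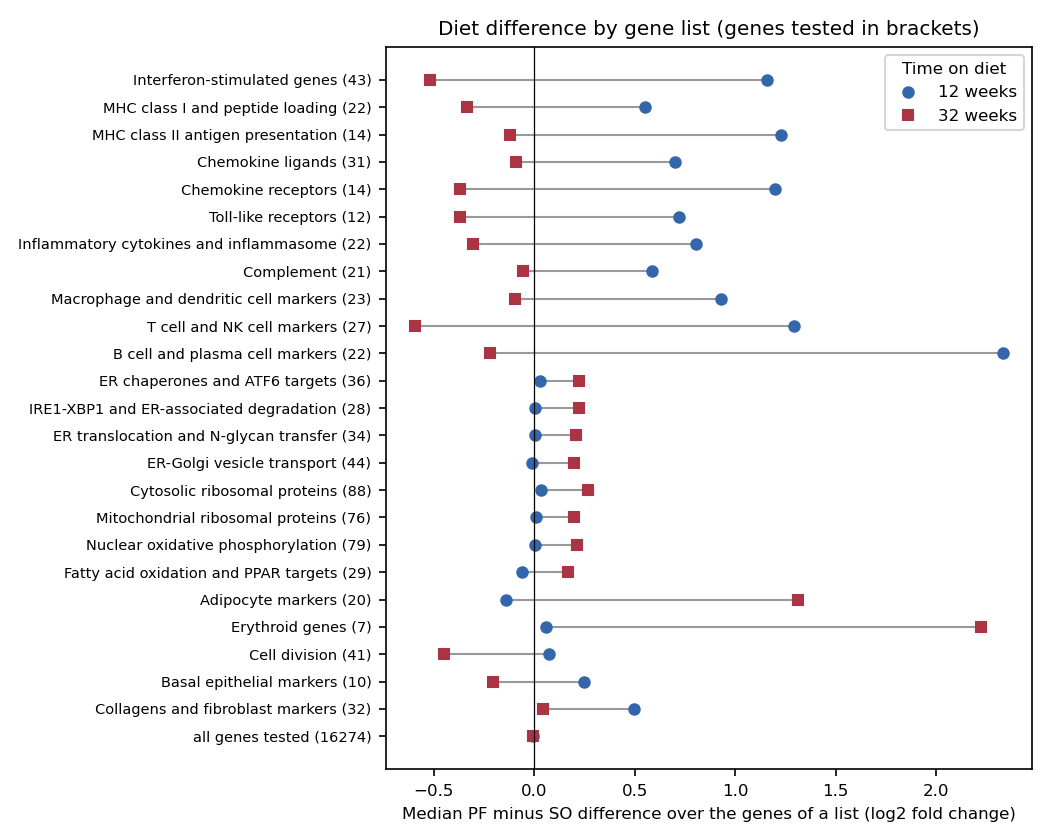
Median PF minus SO log2 fold change over the genes of each list at 12 weeks (circles) and 32 weeks (squares), joined by a line, with the number of genes tested in brackets. The 11 immune lists drawn lie between 0.55 and 2.33 at 12 weeks and at or below -0.06 at 32 weeks (mast cell and granulocyte markers, at 0.45 and 1.14, are not drawn), while the ER, ribosome, oxidative phosphorylation, adipocyte and erythroid lists lie between -0.14 and 0.06 at 12 weeks and between 0.20 and 2.22 at 32 weeks.

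The secretory pathway showed the opposite order, with median diet differences near 0 at 12 weeks and a small excess of PF at 32 weeks. Among 34 ER translocation and N-glycan transfer genes that passed the filter (35 counted), 33 had a term above 0. An unadjusted p under 0.05 was found in 11, against 2.82% of all genes. Of the 34 differences, 31 were classed as appearing, against 6476 of 16274 over all genes. The median difference was 0.00 at 12 weeks and 0.21 at 32 weeks, and the median change with time was -0.20 within SO and 0.01 within PF. Mean log2 CPM of the list lay between 7.12 and 7.23 in SO at 32 weeks and between 7.29 and 7.48 in the other 15 mice, without overlap. The count of 11 became 7 without mouse 1 of PF at 12 weeks.

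Spcs2, a subunit of the signal peptidase that trims proteins entering the ER (chromosome 7, 99837569 to 99863462), was at 257, 265, 286, 291 and 303 CPM in SO and 260.3, 289, 297, 265 and 280.4 CPM in PF at 12 weeks. The levels at 32 weeks were 224, 219, 223.5, 235 and 240.1 CPM in SO and 319, 267.5, 294, 269 and 284 CPM in PF. The 5 SO mice of 32 weeks were below all 15 others. The term was 0.34 ± 0.09, with an adjusted p of 0.155 in edgeR and 0.0199 in DESeq2, and the fall within SO was called by edgeR (-0.30, adjusted p = 0.0104).

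Ostc, a subunit of the oligosaccharyltransferase that attaches N-glycans (chromosome 3, 130695912 to 130709444), was at 98.6 to 118.4 CPM in SO and 95.4 to 118.1 CPM in PF at 12 weeks. It was at 80.4, 73.8, 76.4, 90.04 and 90.7 CPM in SO and 119.5, 96.8, 107.4, 104.2 and 116.2 CPM in PF at 32 weeks. As with Spcs2, SO at 32 weeks was below all other mice. The term was 0.41 ± 0.11, with an adjusted p of 0.168 in edgeR and 0.0451 in DESeq2. Spcs3 (0.27 ± 0.09) and the translocon-associated Ssr4 (0.29 ± 0.10) did not pass in either test.

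Vesicle transport between ER and Golgi had 42 of 44 tested genes with a term above 0. An unadjusted p under 0.05 was found in 11, all above 0 (25%, beside 2.82% of all genes). The count became 7 without mouse 1 of PF at 12 weeks, without mouse 5 of SO at 12 weeks or without mouse 3 of PF at 32 weeks. Bet1, a SNARE of this step (chromosome 6, 4076899 to 4086972), was at 33.5, 33.9, 36.35, 37.1 and 37.2 CPM in SO and 34.8, 38.6, 36.6, 37.3 and 35.6 CPM in PF at 12 weeks. After 32 weeks it was at 29.9, 29.7, 32.03, 34.5 and 32.4 CPM in SO and 40.97, 37.8, 43.45, 38.4 and 39.96 CPM in PF. The diets overlapped at 12 weeks and did not overlap at 32 weeks. Its term was 0.30 ± 0.08 and DESeq2 called it (adjusted p = 0.0335) with Mcfd2, a cargo receptor subunit (0.33 ± 0.10). The SNARE Sec22b (0.30 ± 0.09) and the retrieval receptor genes Kdelr2 (0.35 ± 0.14) and Kdelr3 (0.46 ± 0.21) did not pass.

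ER chaperones and ATF6 targets had a term above 0 in 33 of 36 genes. Of the 36 differences, 25 were classed as appearing, against 6476 of 16274 over all genes. An unadjusted p under 0.05 was found in 6, all above 0 (16.7%, beside 2.82% of all genes). Dnajc10, an ER disulfide reductase also called ERdj5 (chromosome 2, 80315466 to 80354043), was at 2738 to 3241 CPM in SO and 2474 to 2770.0 CPM in PF at 12 weeks, and at 2455 to 2600.0 CPM in SO and 2532 to 3059 CPM in PF at 32 weeks. The groups overlapped at both times, at 32 weeks through mouse 5 of PF alone. Its difference changed sign, from -0.19 to 0.16, and the term was 0.36 ± 0.10 with an adjusted p of 0.161 in edgeR and 0.0156 in DESeq2. Selenos, a selenoprotein of ER-associated degradation, also passed with DESeq2 (0.33 ± 0.09). Agr2, a disulfide isomerase of mucin-secreting cells (0.39 ± 0.12), Selenok (0.39 ± 0.12) and Dnajb9, a co-chaperone induced by XBP1 (0.58 ± 0.18), did not.

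The classical chaperone Hspa5, also called BiP, is an example of a difference that kept its direction. It was at 1297, 1614, 1709, 1301 and 1754 CPM in SO and 1860.0, 2276, 2397, 1457 and 1742 CPM in PF at 12 weeks. At 32 weeks it was at 1166, 1167, 1093, 1254 and 1142 CPM in SO and 2039, 1755, 1780.0, 1499 and 1353 CPM in PF. The diets overlapped at 12 weeks and were separate at 32 weeks. The differences were 0.34 and 0.53 and the term was 0.19 ± 0.19, with an adjusted p of 0.839. Manf (0.32 ± 0.18), Hyou1 (0.26 ± 0.17), Herpud1 (0.36 ± 0.24) and Xbp1 (0.16 ± 0.11) had terms of similar size that did not pass, nor did Asns (0.14 ± 0.19), a target of ATF4.

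Of 28 genes of the IRE1-XBP1 branch and ER-associated degradation, 27 had a term above 0. An unadjusted p under 0.05 was found in 6, all above 0 (21.4%, beside 2.82% of all genes). They include Derl1 (0.22 ± 0.07) and Derl2 (0.22 ± 0.08), which help extract misfolded proteins, and Serp1 (0.29 ± 0.11), none of which passed. The PERK-ATF4 list was weaker, with 2 of 34 genes at an unadjusted p under 0.05 (Eif2ak3, 0.33 ± 0.13, and Slc1a4, 0.58 ± 0.24), both above 0, a share of 5.88% beside 2.82% of all genes. Sbp itself was at 10.1% to 11.5% of scaled counts in SO at 32 weeks and at 8.31% to 22.8% in PF at 32 weeks, against 17% to 26.3% in SO and 13.6% to 26.8% in PF at 12 weeks. It fell within SO (-0.98, adjusted p = 0.014), its term was 0.79 ± 0.31 (adjusted p = 0.392), and its part in the levels of ER genes was not tested.

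Ribosomal and mitochondrial genes also had small positive terms, which rested largely on 1 mouse. The median term was 0.23 over 88 cytosolic ribosomal protein genes, 0.19 over 76 mitochondrial ribosomal protein genes and 0.21 over 79 nuclear genes of oxidative phosphorylation, with 3 genes of each list above 0 at an unadjusted p under 0.05 (3.41%, 3.95% and 3.8%), shares near the 2.82% of all genes. Mean log2 CPM of cytosolic ribosomal protein genes was 8.49 in mouse 1 of PF at 32 weeks and 7.78 to 7.81 in the other 4. Without that mouse the 3 medians were 0.07, 0.06 and 0.05. The cytosolic count lay between 0 (without mouse 1 of PF at 12 weeks) and 20 (without mouse 5 of PF at 12 weeks). Without mouse 1 of PF at 32 weeks the median was 0.20 for the ER translocation list, 0.13 for ER chaperones and 0.20 for vesicle transport.

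**Figure D4:**
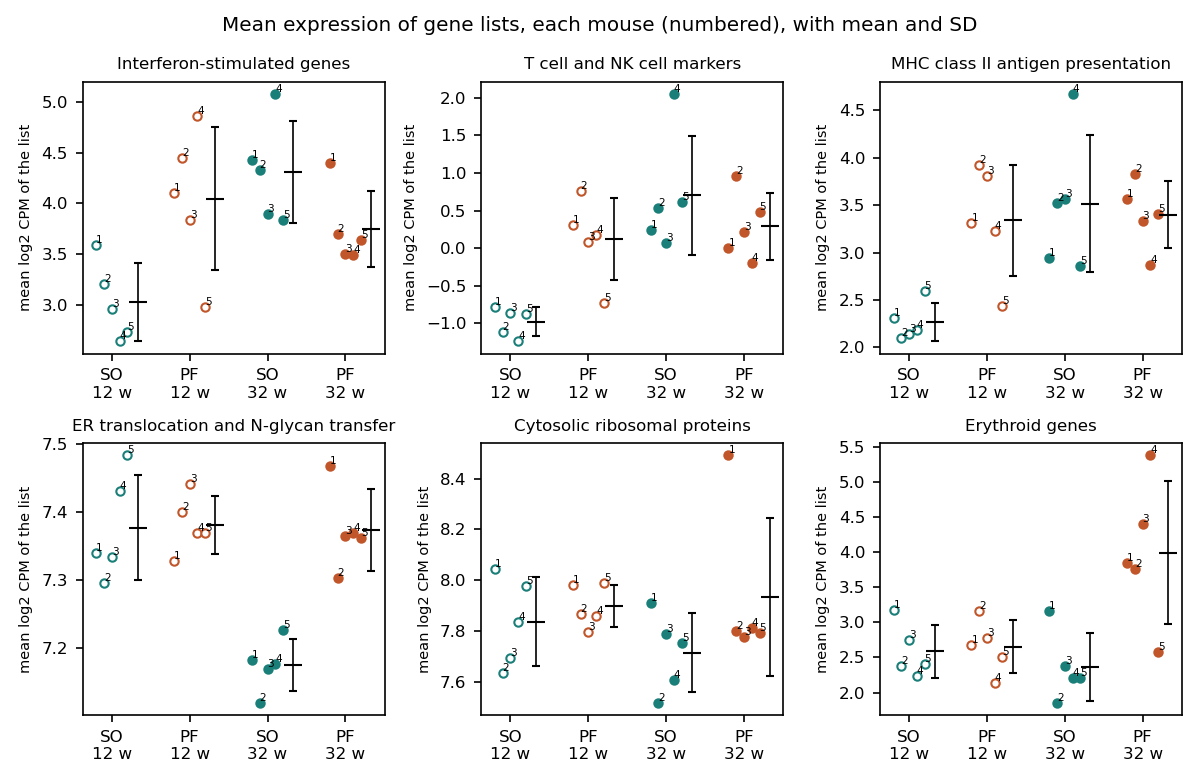
Mean log2 CPM of 6 gene lists, with a point for each numbered mouse and the group mean with SD beside it; open points are 12 weeks and filled points 32 weeks. Mouse 5 of PF at 12 weeks lies within or just above the range of the 12-week SO mice in the first 3 panels, mouse 4 of SO at 32 weeks is the highest in them, the 5 SO mice of 32 weeks are the lowest in ER translocation, and mouse 1 of PF at 32 weeks is the highest in ribosomal proteins.

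Lipid genes gave few calls. Acot1, a cytosolic acyl-CoA thioesterase and PPAR target (chromosome 12, 84009490 to 84018371), was at 24.65, 23.7, 32.6, 21.3 and 23.2 CPM in SO and 23.6, 22.35, 17.8, 21.3 and 19.1 CPM in PF at 12 weeks. The levels at 32 weeks were 17.65, 15.85, 26.8, 15.1 and 16.9 CPM in SO and 25.7, 26.3, 24.9, 27.65 and 27.3 CPM in PF. The difference changed sign, from -0.27 to 0.51, although mouse 3 of SO at 32 weeks lay among the PF mice. The term was 0.78 ± 0.20, with an adjusted p of 0.149 in edgeR and 0.0197 in DESeq2. Because Acot1 belongs to a cluster of similar genes, its counts may depend on how shared reads were treated. Among 29 fatty acid oxidation and PPAR target genes 4 had an unadjusted p under 0.05, all above 0 (13.8%, beside 2.82% of all genes). They were Slc25a20, the mitochondrial carnitine carrier (0.40 ± 0.13), Acadl (0.29 ± 0.12), Angptl4 (1.31 ± 0.56) and Hadh (0.26 ± 0.12). That count became 1 without mouse 4 of SO at 32 weeks and 8 without mouse 5 of PF at 12 weeks. It became 2 without mouse 2 of PF at 12 weeks, mouse 3 of SO at 12 weeks or mouse 5 of PF at 32 weeks, and 7 without mouse 4 of PF at 12 weeks, mouse 2 of SO at 12 weeks or mouse 5 of SO at 32 weeks. Scd1, the stearoyl-CoA desaturase, kept its direction, with differences of 0.74 and 1.26 and a term of 0.52 ± 0.47.

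Adipocyte markers had a median term of 1.22 over 20 genes, yet only Cfd (2.83 ± 1.28) had an unadjusted p under 0.05. Cfd ranged from 12.1 to 202.5 CPM in SO and from 28.5 to 84.9 CPM in PF at 12 weeks, and from 0.921 to 75.8 CPM in SO and from 9.26 to 262 CPM in PF at 32 weeks, so the diets overlapped at both times. The list median was 0.73 without mouse 5 of SO at 12 weeks and 1.93 without mouse 5 of SO at 32 weeks, and the count lay between 0 and 10 as each mouse was left out, with 10 without the latter mouse and 9 without mouse 3 of PF at 32 weeks.

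Erythroid genes had a diet difference that appeared at 32 weeks, with a median of 0.06 at 12 weeks and 2.22 at 32 weeks. Of 9 listed, 7 passed the filter, and all 7 had a term above 0 at an unadjusted p under 0.05 (beside 2.82% of all genes). That count lay between 5 and 7 as each mouse was left out, and limma voom with quality weights gave 2. Hbb-bs, an adult beta-globin gene (chromosome 7, 103826534 to 103828096), was at 12.65 to 34.9 CPM in SO and 12.85 to 37.6 CPM in PF at 12 weeks. After 32 weeks it was at 34.7, 10.97, 14.8, 12.9 and 15.1 CPM in SO and 69.8, 69.5, 119.5, 289 and 19.3 CPM in PF. Mice 1 to 4 of PF at 32 weeks were above all others, and mouse 5 lay within the SO range. The term was 2.62 ± 0.72, with an adjusted p of 0.168 in edgeR and 0.0427 in DESeq2, and Hbb-bt had a term of 2.66 ± 0.73. The globin paralogs share sequence, so they are not independent. Globin RNA marks red blood cells, and their share in the tissue was not tested.

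Other genes with the smallest p above 0 have varied roles. Slc33a1, the acetyl-CoA transporter of the ER membrane (chromosome 3, 63933507 to 63964768), was at 113.6 to 131 CPM in SO and 117 to 126.6 CPM in PF at 12 weeks, and at 103.6 to 110.9 CPM in SO and 120.6 to 135.6 CPM in PF at 32 weeks. The diets overlapped at 12 weeks and not at 32 weeks, and the term was 0.28 ± 0.07 (adjusted p of 0.149 in edgeR and 0.0121 in DESeq2). The F-box gene Fbxo9 (0.35 ± 0.09), the small GTPase gene Rab39b (0.50 ± 0.13), the glucocorticoid-induced Tsc22d3 (0.33 ± 0.09) and Vmac (0.42 ± 0.11) were also called by DESeq2, each with PF below SO at 12 weeks and above it at 32 weeks. Sod1, the cytosolic superoxide dismutase, had a term of 0.46 ± 0.13 that did not pass (adjusted p of 0.186 in edgeR and 0.0534 in DESeq2).

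Among epithelial lists, all 10 basal epithelial markers tested had a term below 0. Of these, 5 had an unadjusted p under 0.05 (50%, beside 6.75% of all genes). They include Trp63 (-0.39 ± 0.15), Krt14 (-0.99 ± 0.42), Col17a1 (-0.70 ± 0.25) and Lamb3 (-0.64 ± 0.22), and none passed in either test. The count became 3 without any of mouse 2 of PF at 12 weeks, mouse 3 of SO at 12 weeks, mice 3 and 4 of PF at 32 weeks, and mice 1 and 4 of SO at 32 weeks, each left out alone. Of 20 prostate secretory protein genes tested, 14 had a term above 0 and 6 below 0, with a median term of 0.16. At an unadjusted p under 0.05, 2 were below 0 (10%, beside 6.75% of all genes) and 3 above 0 (15%, beside 2.82%). Among those below 0, Apof had a term of -1.75 ± 0.47 and passed with DESeq2 (adjusted p = 0.0239). It was at 104.4 to 176 CPM in SO and 132.9 to 512 CPM in PF at 12 weeks, and at 171.3 to 502 CPM in SO and 147.3 to 401 CPM in PF at 32 weeks. Pigr, which carries immunoglobulin A across the epithelium, had a term of -0.61 ± 0.25, and Azgp1 one of 0.37 ± 0.17.

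The collagen and fibroblast list and the endothelial list also had a median difference above 0 at 12 weeks and near 0 at 32 weeks. Smooth muscle contractile genes did not, with medians of -0.0856 and -0.155. Of 32 collagen and fibroblast genes 31 had a term below 0, with a median difference of 0.50 at 12 weeks and 0.05 at 32 weeks. In 24 the difference was classed as fading, against 3783 of 16274 over all genes. In this list 4 genes had an unadjusted p under 0.05 (12.5%, beside 6.75% of all genes), Mmp3, Col15a1 (-0.50 ± 0.23), Thy1 (-0.71 ± 0.32) and Mmp9 (-0.57 ± 0.26). The count lay between 1 and 11 as each mouse was left out, with 11 without mouse 2 of PF at 32 weeks. Mmp3, a stromal protease, was called by DESeq2 (-4.42 ± 1.33) from levels of 0 to 3.64 CPM. Of 14 endothelial markers 11 had a term below 0, with a median difference of 0.35 at 12 weeks and 0.07 at 32 weeks. An unadjusted p under 0.05 was found in 3 (21.4%, beside 6.75% of all genes), Plvap (-0.93 ± 0.39), Emcn (-0.65 ± 0.29) and Vwf (-0.59 ± 0.26). The part of these cell types in the immune lists was not tested.

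Cell division genes had a median term of -0.53 over 41 genes, with 40 below 0. The median difference was 0.07 at 12 weeks and -0.45 at 32 weeks. Of the 41 differences, 31 were classed as appearing, against 6476 of 16274 over all genes, and 1 as fading. An unadjusted p under 0.05 was found in 7, all below 0 (17.1%, beside 6.75% of all genes). That count became 18 without mouse 1 of PF at 32 weeks, 11 without mouse 2 of PF at 12 weeks and 4 without mouse 4 of SO at 32 weeks. E2f8 (-1.33 ± 0.43) and the replication helicase genes Mcm5 (-0.89 ± 0.30) and Mcm3 (-0.88 ± 0.30) did not pass in either test. Mitochondrially encoded genes, cholesterol synthesis, smooth muscle contractile genes, glycolysis and cytosolic heat-shock proteins had 0 genes at an unadjusted p under 0.05 in edgeR and 0 called by DESeq2, with median terms from -0.05 to 0.09. Immediate early genes and skeletal muscle markers also had 0 genes at an unadjusted p under 0.05 in edgeR and 0 called by DESeq2, with median terms of -0.30 (20 of 24 below 0) and -0.90 (16 of 16 below 0). Mean log2 CPM of the skeletal muscle markers ranged from -0.35 to 5.08 within PF at 32 weeks.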

How the data were processed

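RNA from the VP was sequenced as stranded, paired-end libraries. The authors aligned the reads (TopHat2 and the build GRCm38.p6 are named in the submitters' processing notes) and deposited raw counts per gene from HTSeq. The strand setting and the handling of shared reads are not given in the sources used here. Lines that name no gene held 23.68% to 32.17% of each file and were left out.

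From the deposited counts, the 4 groups (diets and time points from the labels, replicates 1 to 5 as separate mice) were fitted together in R 4.3.3 with edgeR 4.0.16 (filterByExpr, TMM, two-sided quasi-likelihood test). P-values were adjusted by Benjamini-Hochberg over all genes, with a threshold of 0.05. SE was derived from the F statistic. DESeq2 1.42.0 and limma 3.58.1 were alternatives. CPM are TMM-scaled, and list scores are mean log2 CPM (prior count 2). The script was tested on simulated data. No 2 libraries of a group agreed within counting noise (40 pairs, lowest chi-square per degree of freedom 22.7).

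The contrast, the 45 gene lists, some of which overlap, and the libraries set aside were chosen with earlier results of these data known. Named genes were the 12 with the smallest p in each direction at a mean of at least 1 CPM, none of which passed the adjusted threshold, up to 4 per list, and genes the study's text names. Positions are from GENCODE M21 on GRCm38. Some genes that these rules name are not reported here.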

Additional observations from a re-analysis of the deposited data

Results flagged for a closer look

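Values far from the other 4 of their group were looked for in 53 lists and genes, 212 groups of 5 in all, and 19 groups held such a value by Dixon's test, where chance gives about 1 in 20. Mouse 1 of PF at 32 weeks was high in the mean log2 CPM of interferon-stimulated genes (4.40), cytosolic ribosomal proteins (8.49), mitochondrial ribosomal proteins (4.95), nuclear oxidative phosphorylation (6.31) and cell division (2.72), and in Oas3 (3.86 CPM) and Apof (401 CPM). Mouse 4 of SO at 32 weeks was high in T and NK cell markers (2.05 in mean log2 CPM) and in Nlrc5 (44.1 CPM), Ccl22 (3.48 CPM), Cd3d (4.61 CPM), Ms4a1 (14.65 CPM) and Dnajb9 (67.96 CPM). Mouse 1 of SO at 32 weeks was low in macrophage and dendritic cell markers (2.60 in mean log2 CPM) and high in Hbb-bs (34.7 CPM). Acot1 was high in mouse 3 of SO at 32 weeks (26.8 CPM), Angptl4 in mouse 4 of PF at 12 weeks (11.3 CPM), Nlrc5 in mouse 1 of SO at 12 weeks (10.6 CPM) and Cfd in mouse 5 of SO at 12 weeks (202.5 CPM). DESeq2 called 206 genes whose diet difference differed between the time points.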

How the results depend on the processing

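No gene passed the adjusted threshold with edgeR or limma under any alternative that kept all 20 mice (smallest adjusted p 0.0589), and leaving out each mouse in turn gave 0 to 132 calls, with 132 without mouse 5 of PF at 12 weeks and 0 without any other. DESeq2 gave 206, and, in alternatives chosen after seeing the data, 382 without mouse 5 of PF at 12 weeks (771 genes above 0 at an unadjusted p under 0.05), 54 without mouse 4 of SO at 32 weeks and 141 with a replicate block within each time point. Leaving out both of these mice gave 87 with edgeR. The edgeR calls without mouse 5 of PF at 12 weeks shared 124 genes with the DESeq2 calls, 93.9% of the former and 60.2% of the latter.

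No cage, batch or day shared by mice with equal numbers is given, so the replicate numbers were treated as names only. The deviations of 5 of 10 same-numbered PF and SO pairs correlated over 0.1, and the lowest correlation was -0.26. The mean correlation was 0.0475 for same-numbered and -0.0117 for different-numbered pairs at 12 weeks, and 0.104 and -0.0215 at 32 weeks. Across the time points these means were 0.147 and -0.0353. The cause of the higher means for equal numbers was not tested. With edgeR a replicate block within time points gave 0 calls and 1446 genes at an unadjusted p under 0.05, and a block of numbers 1 to 5 across both times gave 0 and 1725, beside 1558 without it. In that paired fit the B and plasma cell median was -1.31, and -1.16 with the block in DESeq2.

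None of the 121 genes named and 24 list medians changed sign under the 35 alternatives. List medians that moved by more than the spread between mice were B and plasma cells under limma (-1.27), cytokines when only genes with at least 10 counts in every mouse were kept (-0.46, fewer genes tested) and cell division without both mice (-0.18). The cause was not tested for the B and plasma cell medians, and the last rests on fewer mice. The median term over all genes stayed within 0.02 of 0 in all scalings. Depth limits the lymphocyte genes, many of which were under 1 CPM.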
